A study of Mus musculus with 5 samples.

Results

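Transcripts for enzymes of folate one-carbon metabolism, the methionine cycle and polyamine synthesis were followed in embryonic day 14 mouse lenses, control and N-myc knockout. The group was set by name as 10 genes, Odc1, Srm, Amd1, Shmt1, Shmt2, Mthfd1, Mthfd2, Mthfd1l, Mat2a and Ahcy, and members were the rows of the count table that carry these symbols. A total of 9 of the 10 had a row among 12370 gene symbols, and all 9 passed the filter on low counts. Amd1 was not analysed here.

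RNA was sequenced from 3 control and 2 knockout libraries. All of them came from lenses in which both alleles of N-myc (Mycn) are flanked by loxP sites. Control embryos carried no Cre. The labels describe control genotypes with and without loxP-flanked alleles of c-myc as well, and do not say which of these each control library had. Knockout embryos carried 1 copy of Mlr10-Cre, a transgene that expresses Cre recombinase in the lens, so effects of the transgene and of the deletion cannot be told apart. Lenses were lysed animal by animal, and lysates were pooled before RNA purification.

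Folate-bound one-carbon units are passed between serine, glycine, purine and thymidylate synthesis by parallel sets of enzymes in the mitochondria and the cytosol. The methionine cycle turns methionine into S-adenosylmethionine, the methyl donor of the cell, and remakes methionine from the homocysteine left afterwards. Polyamines are small cations made from ornithine and from decarboxylated S-adenosylmethionine, and one of them, spermidine, supplies the hypusine residue of the translation factor eIF5A. MYC proteins are known regulators of several of these genes, and Odc1 is a classical MYC target in other cell types.

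Libraries summed to between 13162384 and 13746416 counts, and no pair within a group agreed within sampling noise (chi-square over its degrees of freedom between 9.98 and 23.4). Levels are CPM, the counts relative to library size, scaled by the trimmed mean of M values (TMM). Mycn stood at 162.0, 148.4 and 140.3 CPM in control replicates 1 to 3 and at 57.3 and 81.9 CPM in knockout replicates 1 and 2 (log2 fold change -1.11 with SE 0.15, edgeR quasi-likelihood adjusted p = 0.0097). Neither Myc (log2 fold change 0.63, adjusted p = 0.073) nor Mycl (0.21, adjusted p = 0.28) passed edgeR's test. Myc was at 38.3, 25.6 and 21.4 CPM in control lenses against 43.7 and 44.5 CPM in knockout lenses. For both Myc and Mycl the knockout range lay wholly above the control range, as for 25.5% of all genes tested. All 13 lens markers had counts, with summed levels of 85778 to 107135 CPM in controls and 79656 to 93325 CPM in knockouts, and edgeR called 4 of them lower and 0 higher. Summed levels of 11 periocular mesenchyme markers in the table were 590.3 to 875.8 CPM in controls, 2413 CPM in knockout replicate 1 and 743.7 CPM in knockout replicate 2, with 3 called higher and 0 lower. For 10 retina markers they were 223.4 to 329.7 CPM in controls and 375.9 and 503.1 CPM in the knockouts, with 6 called higher and 1 lower. The 4 leukocyte markers, of which 1 was called higher and 0 lower, summed to 14.1 to 21.3 CPM against 29.8 and 30.2 CPM. The 10 endothelium and pericyte markers, with 1 called in each direction, summed to 303.8 to 381.5 CPM in controls and to 303.7 and 321.2 CPM in knockouts. The 7 red blood cell markers in the table summed to 68.7 to 102.8 CPM in controls and to 74.6 and 85.6 CPM in knockouts, with 0 called; of these Hba-a1, Hba-a2 and Hbb-bt were at 0 in every library and the others had counts in 1 library or more. Fewer cells of a type and less RNA per cell cannot be told apart in these bulk samples.

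Of the 9 members, Odc1, Mat2a and Mthfd1l fell in the knockout lenses, by 1.22-fold to 1.32-fold, and none rose (edgeR adjusted p under 0.05). For comparison, 8.51% of the 12035 genes tested were called lower and 7.98% higher. Srm and Mthfd2 had larger folds, 1.37 and 1.34, with adjusted p just above the threshold. At an unadjusted p under 0.05, edgeR, DESeq2 and limma-voom, run on the same 5 libraries, each had 5 members lower and 0 higher. At that threshold edgeR had 4311 of the 12035 genes tested in either direction, and those lower were not counted apart. Without knockout replicate 1, which leaves 1 knockout library, fewer than 5 members were lower at that threshold. Shmt1, Shmt2, Mthfd1 and Ahcy did not pass the test. Leaving out control replicate 2, control replicate 3 or knockout replicate 1 left 0 members called, with edgeR adjusted p between 0.068 and 0.27 for Odc1, Mat2a and Mthfd1l. Leaving out control replicate 1 left Mthfd1l alone, and leaving out knockout replicate 2 left Odc1 and added Srm and Mthfd2. The median log2 fold change of the 9 members was -0.29, against 0.00 over all genes tested. In 5 members the knockout range lay wholly below the control range, a pattern found in 27% of all genes tested, and in 1 member wholly above it, against 25.5%.

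**Figure D1:**
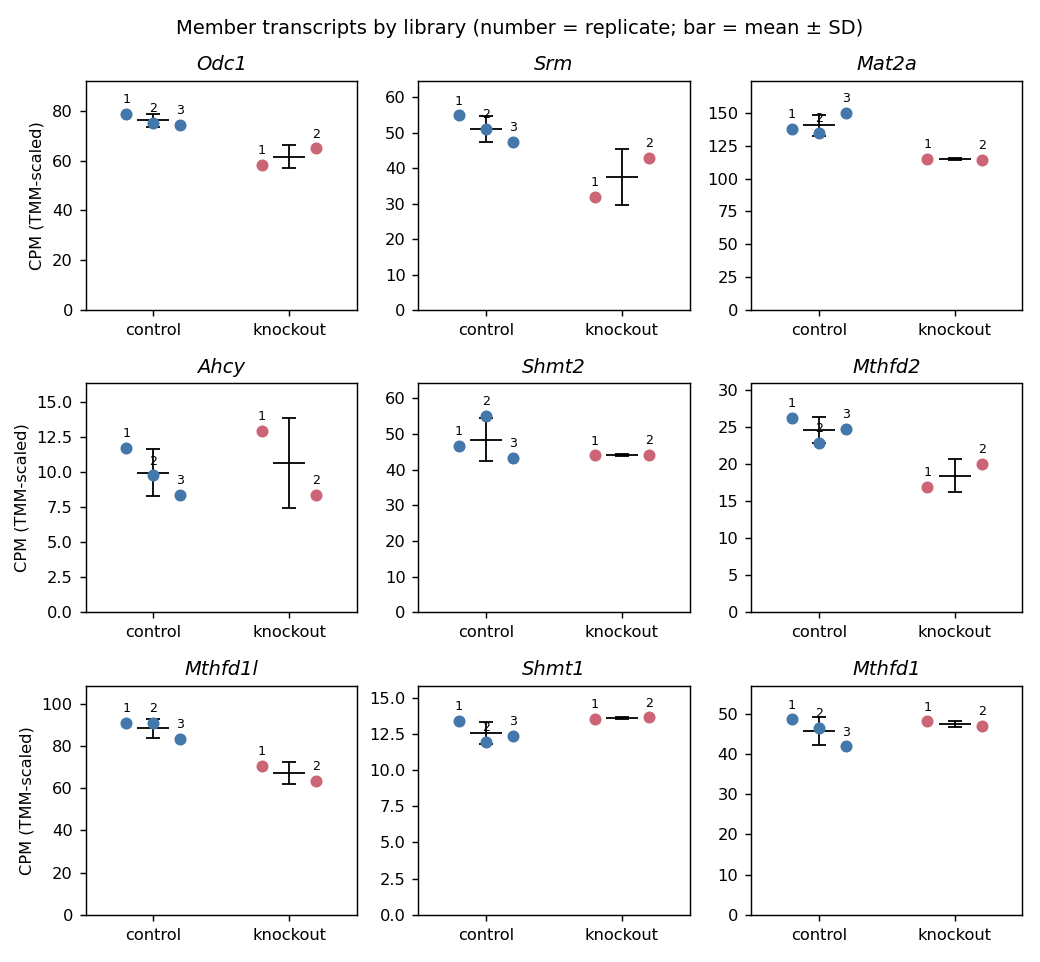
TMM-scaled CPM (y axis, starting at 0) of the 9 members in each library, with points numbered by replicate and black bars giving mean ± SD. Both knockout libraries lie below every control library for Odc1, Srm, Mat2a, Mthfd2 and Mthfd1l, and the groups overlap for Ahcy, Shmt2 and Mthfd1.

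Polyamine synthesis starts with Odc1, ornithine decarboxylase (chromosome 12, 17544794 to 17551505, GRCm38). Odc1 was at 78.9, 75.2 and 74.2 CPM in control replicates 1 to 3 and at 58.4 and 64.8 CPM in knockout replicates 1 and 2. The control values were close together, and both knockouts lay below them. The log2 fold change was -0.30 (with SE 0.085 and edgeR adjusted p = 0.047), from 76.1 ± 2.44 CPM (SD, n = 3) to 61.6 ± 4.56 CPM (SD, n = 2). Odc1 was called lower in 5 of 13 alternatives, with adjusted p from 0.034 to 0.27. Spermidine synthase, Srm (chromosome 4, 148591503 to 148594993), adds an aminopropyl group to putrescine. Its levels were 54.9, 51.0 and 47.4 CPM in control lenses against 31.8 and 43.0 CPM in knockout lenses. The knockout replicates differed from each other by more than the controls did, and replicate 1 was the lower. The log2 fold change of Srm was -0.45 (SE 0.14, 95% interval -0.77 to -0.13 before adjustment, edgeR adjusted p = 0.059), so Srm did not pass. It did pass with DESeq2 (adjusted p = 0.034), with trends on transcript length and GC content removed (log2 fold change -0.57, adjusted p = 0.035) and without knockout replicate 2 (-0.68, adjusted p = 0.01), within a range of 0.01 to 0.32 over 13 alternatives.

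In the methionine cycle Mat2a, the S-adenosylmethionine synthetase of most tissues other than adult liver (chromosome 6, 72432799 to 72439558), was at 137.7, 134.6 and 149.8 CPM in control lenses against 115.3 and 114.5 CPM in knockout lenses. The knockout libraries were nearly equal, and both lay below the lowest control. The log2 fold change was -0.29 (with SE 0.082 and edgeR adjusted p = 0.046). Mat2a has a transcript with 43.1% GC and belongs to the fifth of tested genes with the lowest GC content, of which 21.0% were called lower. With the trends on length and GC removed its log2 fold change was -0.10 (adjusted p = 0.31), and 3 of 13 alternatives called Mat2a lower, within a range of adjusted p from 0.017 to 0.55. Ahcy, which hydrolyses the S-adenosylhomocysteine left by methyl transfer (chromosome 2, 155059310 to 155074497), was at 11.8, 9.79 and 8.42 CPM in the controls. In the knockouts it was at 12.95 and 8.39 CPM, which are the highest and the lowest of the 5 values. Its log2 fold change was 0.10 (SE 0.23, 95% interval -0.43 to 0.62, edgeR adjusted p = 0.79), and its sign was negative in 4 of 13 alternatives.

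Among the mitochondrial folate enzymes Mthfd1l, which releases formate from formyl-tetrahydrofolate (chromosome 10, 3973118 to 4167081), had the smallest adjusted p of the members. It was at 90.9, 90.8 and 83.3 CPM in control lenses against 70.6 and 63.5 CPM in knockout lenses, and the groups did not overlap. The log2 fold change was -0.40 (with SE 0.088 and edgeR adjusted p = 0.028), and 8 of 13 alternatives called it lower, with adjusted p from 0.0047 to 0.11. Mthfd2, the mitochondrial methylene-tetrahydrofolate dehydrogenase and cyclohydrolase (chromosome 6, 83305691 to 83325908), was at 26.3, 22.8 and 24.8 CPM in control lenses against 16.9 and 20.0 CPM in knockout lenses. The groups were separate here too, but the test was not passed (log2 fold change -0.42 with SE 0.13, 95% interval -0.72 to -0.11 before adjustment, edgeR adjusted p = 0.062). Mthfd2 was called in 1 of 13 alternatives, without knockout replicate 2 (adjusted p = 0.039), within a range of 0.039 to 0.31. Shmt2, the mitochondrial serine hydroxymethyltransferase (chromosome 10, 127517123 to 127522444), was at 46.8, 55.2 and 43.4 CPM in control lenses against 44.0 and 44.3 CPM in knockout lenses. Control replicate 2 was high, and the knockouts lay within the control range (log2 fold change -0.13 with SE 0.12, 95% interval -0.40 to 0.13, edgeR adjusted p = 0.43).

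The cytosolic folate members did not pass the test. Shmt1, the cytosolic serine hydroxymethyltransferase (chromosome 11, 60788104 to 60811718), was at 13.4, 11.9 and 12.4 CPM in control lenses against 13.5 and 13.6 CPM in knockout lenses. The knockout values were just above the highest control (log2 fold change 0.11 with SE 0.14, 95% interval -0.21 to 0.43, edgeR adjusted p = 0.60). Mthfd1, the trifunctional cytosolic enzyme that carries out the dehydrogenase, cyclohydrolase and formate-ligase steps (chromosome 12, 76255298 to 76319803), was at 48.5, 46.5 and 41.8 CPM in control lenses against 48.0 and 46.9 CPM in knockout lenses. These ranges overlapped (log2 fold change 0.06 with SE 0.097, 95% interval -0.17 to 0.28, edgeR adjusted p = 0.70).

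Ratios of counts within a library do not depend on how libraries are scaled. The summed counts of Shmt2, Mthfd2 and Mthfd1l over those of Shmt1 and Mthfd1 gave log2 ratios of 1.40, 1.53 and 1.48 in control replicates 1 to 3 and of 1.10 and 1.08 in knockout replicates 1 and 2. Both knockouts lay below the lowest control, with means of 1.47 ± 0.064 (SD, n = 3) and 1.09 ± 0.013 (SD, n = 2). In every library Mthfd1l gave the most counts to the first sum and Mthfd1 to the second. This ratio is therefore not independent of the fold changes given above for these members. The log2 ratio of Mthfd2 to Mthfd1 was -0.89, -1.03 and -0.75 in control lenses against -1.51 and -1.23 in knockout lenses, again without overlap. For Shmt2 to Shmt1 it was 1.80, 2.21 and 1.81 in control lenses against 1.70 and 1.70 in knockout lenses, so the lowest control stood only a little above the knockouts. With 3 against 2 libraries an exact permutation test cannot give a two-sided p below 0.2, and the ratios were not tested. With the trends on length and GC removed, the log2 fold changes were -0.50 for Mthfd1l, -0.33 for Mthfd2 and -0.31 for Shmt2, against -0.04 for Mthfd1 and 0.15 for Shmt1. The log2 ratio of Mat2a to Ahcy was 3.55, 3.78 and 4.15 in control lenses against 3.15 and 3.77 in knockout lenses, which overlap.

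**Figure D2:**
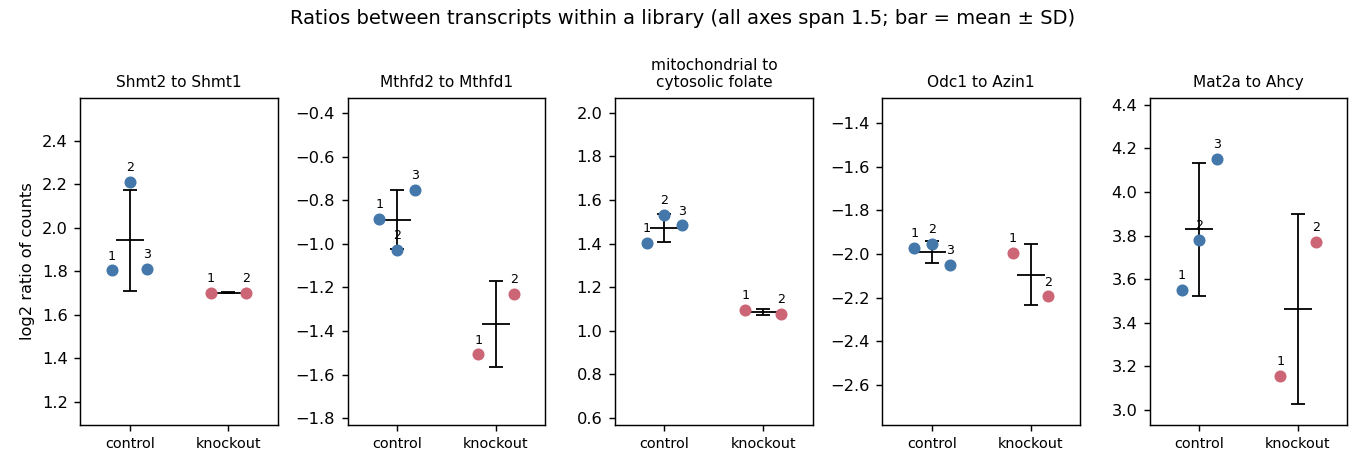
Log2 ratios of counts between transcripts of the same library (y axis; each axis spans 1.5 on the log2 scale), with points numbered by replicate and black bars giving mean ± SD. The ratio of mitochondrial to cytosolic folate members is 1.40 to 1.53 in controls and 1.08 to 1.10 in knockouts, and the ratios of Odc1 to Azin1 and Mat2a to Ahcy overlap.

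The bases before the transcription starts of the 3 members that fell are shown, with the letters searched for in capitals. The search covered the 250 bases before each RefSeq start (GRCm38.p6) on both strands for the E-box CACGTG, the core sequence bound by MYC and MAX, for its variant CACGCG, which reads CGCGTG on the other strand, and for the GC box GGGCGG, which reads CCGCCC there. RefSeq windows were found for 8 of the 9 members; Srm had no entry. The sequences are given 5′ to 3′ on the gene's strand and stop before the GENCODE gene begins.
Odc1, chr12:17544623-17544793, plus strand: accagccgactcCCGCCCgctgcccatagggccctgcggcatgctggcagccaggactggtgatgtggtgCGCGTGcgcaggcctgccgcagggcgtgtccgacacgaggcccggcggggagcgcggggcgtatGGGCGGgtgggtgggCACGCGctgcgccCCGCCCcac
Mat2a, chr6:72439559-72439806, minus strand: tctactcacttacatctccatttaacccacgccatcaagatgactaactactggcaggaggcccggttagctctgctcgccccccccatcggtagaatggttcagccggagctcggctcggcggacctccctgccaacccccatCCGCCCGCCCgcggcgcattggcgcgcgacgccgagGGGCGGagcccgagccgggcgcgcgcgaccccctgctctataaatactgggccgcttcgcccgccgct
Mthfd1l, chr10:3972825-3973074, plus strand: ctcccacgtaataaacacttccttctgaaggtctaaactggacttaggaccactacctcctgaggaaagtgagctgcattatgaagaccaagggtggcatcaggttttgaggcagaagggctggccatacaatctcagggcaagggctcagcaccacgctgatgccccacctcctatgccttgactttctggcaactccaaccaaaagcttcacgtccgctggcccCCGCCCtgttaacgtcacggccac

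CACGTG occurred in 0 of the 8 member windows and in 6.02% of all 32851 RefSeq windows. Bases after the RefSeq starts, introns included, were not searched, so a motif there would be missed. The windows of Mthfd2 and Shmt1 lie inside the GENCODE genes, so the bases before the GENCODE starts of these members were not searched. Odc1 held the variant CACGCG at 2 places, starting 180 and 101 bases before its RefSeq start, and neither overlaps a GC box. That start lies inside the GENCODE gene, beyond the last base shown. Shmt1, which did not pass the test, also held CACGCG, 91 bases before its RefSeq start and inside its GENCODE gene, and 7.62% of all windows did. A GC box was present in 6 of the 8 member windows and in 32.7% of all windows. These matches describe letters in short windows and are not measured binding sites.

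Levels were also compared between members, per kilobase of the longest annotated transcript. In the controls the order was Mat2a (41.5 ± 2.37 CPM per kb, SD, n = 3), Srm (38.2 ± 2.78), Odc1 (34.5 ± 1.11), Mthfd1l (23.9 ± 1.18), Shmt2 (21.2 ± 2.65), Mthfd1 (14.1 ± 1.06), Mthfd2 (11.8 ± 0.822), Shmt1 (4.40 ± 0.267) and Ahcy (3.93 ± 0.659). The control ranges of Mat2a and Srm, of Srm and Odc1, of Mthfd1l and Shmt2, and of Shmt1 and Ahcy overlapped, so these neighbours were not separated beyond their spread. In the knockouts Shmt2 (19.3 ± 0.077 CPM per kb, SD, n = 2) stood above Mthfd1l (18.2 ± 1.37), and the other members kept their places.

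Several levels depend on how reads of near-identical copies were counted, and the sources used here do not state it. Of the 50-base stretches of the longest Ahcy transcript, 77% also occur in annotated transcripts of other symbols, and for Odc1 the share is 42.2%, spread over 16 other symbols. It was 11.4% for Mat2a and under 5% for the other members with a row, with 0 for Mthfd1, Mthfd2 and Mthfd1l. Amd1 encodes S-adenosylmethionine decarboxylase, which supplies the aminopropyl groups for spermidine and spermine. It shares 87.6% of its stretches with other symbols, most of them with Amd2, and Amd2 had 0 counts in every library. Oaz1, the antizyme that binds ornithine decarboxylase and sends it to the proteasome, had at most 1 count per library and was not tested. Oaz1 shares 20.1% of its stretches with other symbols, a smaller share than that of Odc1. The reason for its few counts was not tested. The levels of Ahcy and Odc1 relative to other genes are therefore uncertain. An antisense transcript, Particl, overlaps the start of Mat2a in GENCODE, and its reads cannot be told apart from those of Mat2a without a known strand setting.

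Around these members, 54 of 70 genes of 6 pathway lists were tested, the 9 members included. Of these, 11 fell, 4 rose and 39 did not pass, with a median log2 fold change of -0.18. Of all 12035 genes tested, 8.51% were called lower and 7.98% higher, and the median was 0.00. The counts and medians of each list below stand beside these same shares. Without control replicate 2, without control replicate 3 or without knockout replicate 1, edgeR called 0 of the pathway genes in either direction, where it called 38, 237 and 292 of all genes. In the edgeR fit of all 5 libraries, 22 pathway genes had an unadjusted p under 0.05, beside 4311 of the 12035 genes tested. Without control replicate 2 the number was 18, beside 3157 of 11999 genes. Without control replicate 3 it was 19, beside 3253 of 11997 genes. Without knockout replicate 1, which leaves 1 knockout library, both numbers were smaller still.

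Of 11 tested genes of polyamine synthesis, turnover and control, 3 fell and 2 rose (median log2 fold change -0.30). Spermine synthase, Sms, which follows Srm in the pathway, had the largest fall of the 54 genes. It was at 28.0, 26.6 and 27.8 CPM in control lenses against 12.5 and 17.7 CPM in knockout lenses (log2 fold change -0.86 with SE 0.16, edgeR adjusted p = 0.018). With the trends on length and GC removed, Sms had -0.70 (edgeR adjusted p = 0.029). Other symbols, Sms-ps first among them, share 28.7% of the 50-base stretches of Sms. Spermine oxidase, Smox, which converts spermine back to spermidine, rose from 4.55 ± 0.476 to 8.27 ± 2.06 CPM (log2 fold change 0.86 with SE 0.23, edgeR adjusted p = 0.041). It had 0.77 and an adjusted p of 0.068 with the trends on length and GC removed. The polyamine transporter genes moved apart, Atp13a3 falling 1.25-fold and Atp13a2, whose product exports polyamines from lysosomes, rising 1.29-fold. With the trends on length and GC removed neither passed, and the log2 fold change of Atp13a2 turned to -0.12. Azin1, the antizyme inhibitor that protects ornithine decarboxylase, had a log2 fold change of -0.19 (with SE 0.11 and edgeR adjusted p = 0.25), and its log2 ratio to Odc1 showed no separation of the groups.

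Outside the members only Sms was searched, picked because it had the largest fall of the pathway. One window of its 2 RefSeq starts held the E-box CACGTG, 196 bases before that start, as 6.02% of all RefSeq windows did. The other window held no CACGTG, but the variant CACGCG 140 bases before its start and 4 GC boxes. Binding was not measured. The window with CACGTG is shown in part.
Sms, chrX:157492451-157492510, minus strand: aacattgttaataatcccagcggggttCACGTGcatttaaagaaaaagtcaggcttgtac

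Of the 4 genes of eIF5A and its hypusination, Eif5a and Eif5a2 fell. Eif5a was at 335.9, 362.1 and 333.6 CPM in control lenses against 201.5 and 246.7 CPM in knockout lenses (log2 fold change -0.62 with SE 0.11, edgeR adjusted p = 0.016), and 10 of 13 alternatives called it lower. Eif5a2 fell 1.50-fold, with a log2 fold change of -0.30 and an adjusted p of 0.091 once the trends on length and GC were removed. The hypusinating enzymes Dhps and Dohh had log2 fold changes of -0.10 and -0.09 (SE 0.14 for each) and did not pass.

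Of 13 genes of the cytosolic folate cycle and folate handling, 1 fell and 1 rose, and the median log2 fold change was 0.09. The gene that fell was Mtrr, the reductase that keeps methionine synthase active, at 37.3, 44.7 and 36.7 CPM in control lenses against 25.3 and 25.0 CPM in knockout lenses (log2 fold change -0.65 with SE 0.12, edgeR adjusted p = 0.017). Methionine synthase itself, Mtr, had a log2 fold change of 0.11 (with SE 0.12 and edgeR adjusted p = 0.53). Aldh1l1, which oxidises formyl-tetrahydrofolate, rose 1.56-fold from 10.4 ± 1.14 to 16.2 ± 2.00 CPM (0.42 on the log2 scale, adjusted p = 0.16, with the trends on length and GC removed). Tyms, thymidylate synthase, had a log2 fold change of 0.26 (with SE 0.11 and edgeR adjusted p = 0.13).

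Of 11 genes of the mitochondrial folate arm and glycine cleavage, 3 fell and 1 rose, and the median log2 fold change was -0.27. It was below 0 in 10 of them, beside 5992 of the 12035 genes tested. Among these 10, Mthfd2l (-0.02 with SE 0.18) and Slc25a32 (-0.08 with SE 0.20) lay within their SE of 0. With the trends on length and GC removed they turned to 0.25 and 0.095, and the others of the 10 stayed below 0. Besides Mthfd1l, the falls were those of Dld (1.46-fold), the lipoamide dehydrogenase shared by glycine cleavage and the 2-oxoacid dehydrogenases, and Gcsh (1.40-fold), the lipoyl carrier protein of glycine cleavage. Dld and Gcsh did not pass with the trends on length and GC removed (log2 fold changes -0.24 and -0.27). Sardh, sarcosine dehydrogenase, rose 1.30-fold, with 0.06 on the log2 scale after the same correction.

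Of 12 genes of the methionine cycle and transsulfuration, Mat2a and Mtrr fell and none rose (median log2 fold change -0.18). Mat2b, the regulatory subunit of the synthetase, had -0.13 (SE 0.14) and Mettl16, the methyltransferase that controls the Mat2a transcript, -0.18 (SE 0.093), and neither passed. Of 5 methionine salvage genes 1 fell, namely Mtap, which recycles the methylthioadenosine released by spermidine and spermine synthases. It was at 121.6, 116.4 and 123.8 CPM in control lenses against 76.4 and 92.4 CPM in knockout lenses (log2 fold change -0.51 with SE 0.099, edgeR adjusted p = 0.019). With the trends on length and GC removed, Mtap had -0.38 (edgeR adjusted p = 0.032).

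**Figure D3:**
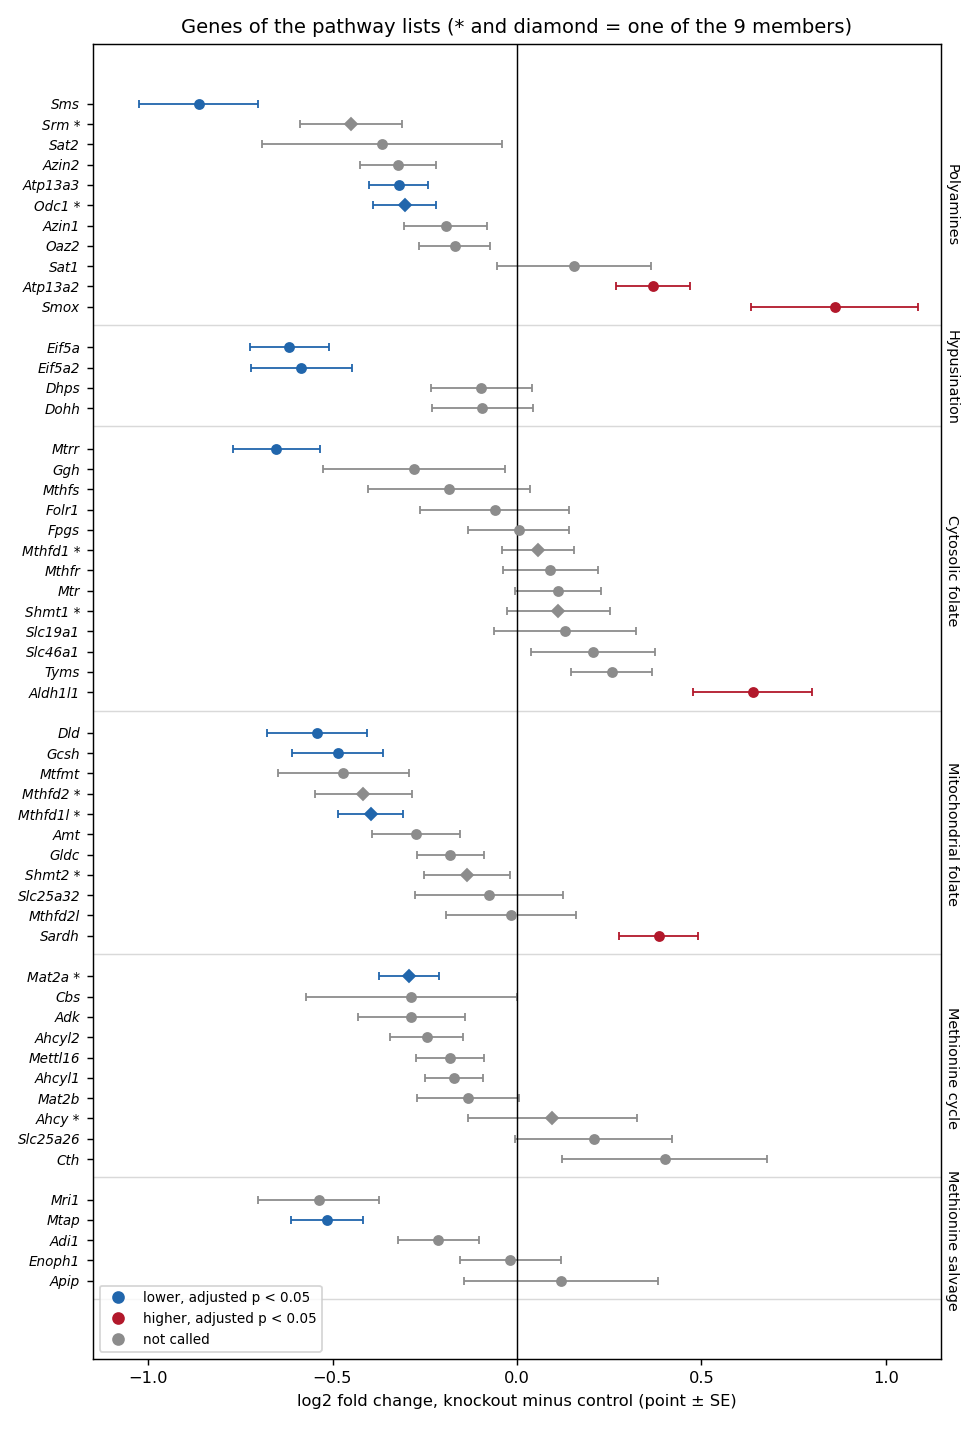
Log2 fold change, knockout minus control, with its SE (x axis) for the 54 tested genes of the 6 pathway lists (y axis; a gene in more than 1 list stands in the first), coloured by edgeR's call, with diamonds for the 9 members. Sms lies lowest at -0.86 and Smox highest at 0.86, and of the mitochondrial folate genes only Sardh lies above 0.

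The pattern over the 5 libraries was also compared between Mthfd1l and 8829 genes with a mean of at least 10 CPM. The genes with the smallest root mean square distance from it, on the scale of log2 (CPM + 1) centred on each gene's mean, were Mrps2, Dnajc6, Timm9, Pigg and Wdr75, at 0.030 to 0.043. The nearest other member was Odc1, at 0.11, with 344 genes closer.

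Knockout replicate 1 had the high mesenchyme markers, and Srm, Odc1, Mthfd2, Sms, Eif5a and Mtap were lower there than in knockout replicate 2, while Mthfd1l was higher there. Without that library the log2 fold changes were -0.23 for Odc1, -0.25 for Srm, -0.30 for Mthfd2, -0.47 for Mthfd1l and -0.29 for Mat2a, with adjusted p from 0.072 to 0.32. In that fit the lone knockout library is assumed to vary as the controls do. The part of the mesenchyme, retina and leukocyte RNA in the results was not tested. Scaled by library totals only, 637 genes were lower and 1511 higher, against 1024 and 960, and 0 members were called.

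**Figure D4:**
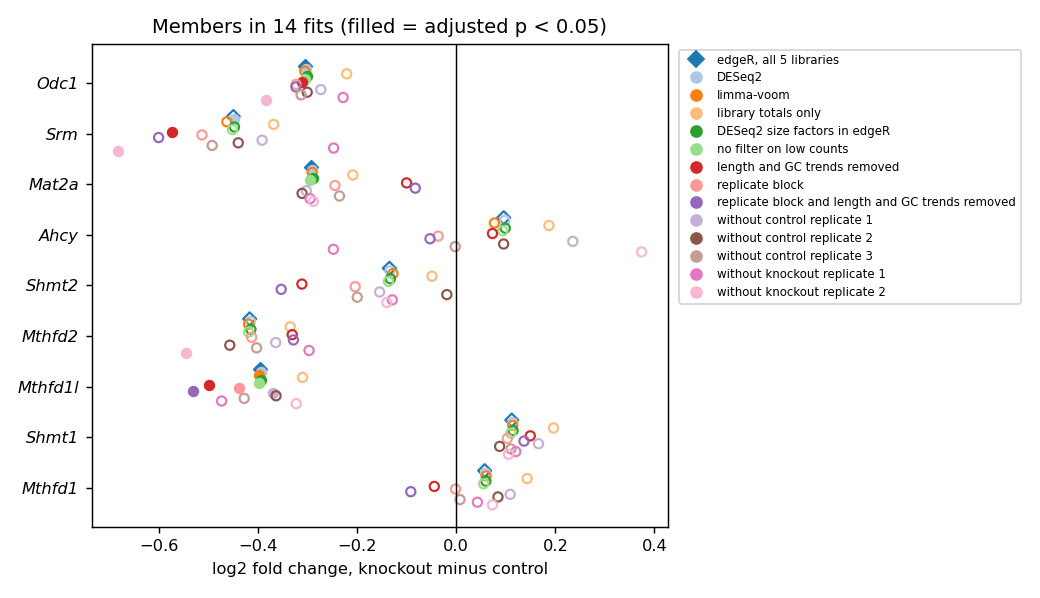
Log2 fold change, knockout minus control (x axis), of the 9 members (y axis) in 14 fits, the edgeR fit of all 5 libraries as a diamond and each alternative as a circle, filled where the adjusted p is under 0.05. All fits lie below 0 for Odc1, Srm, Mat2a, Shmt2, Mthfd2 and Mthfd1l, and most circles are open.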

How the data were processed

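The deposited file is a single matrix of raw counts, 1 row per symbol, per the file headers, and its values are whole numbers. Per the submitters' processing notes, TopHat2 2.0.13, HTSeq 0.6.1, Trim Galore 0.3.7, DESeq2 and Cufflinks 2.2.1 were used on mm10, their roles not being given. The sources used here do not give the strand setting, the annotation or the treatment of reads that map to several places. The fit used edgeR 4.0.16 in R 4.3.3: filterByExpr by group (335 symbols removed), TMM, estimateDisp (biological coefficient of variation 14.1%), glmQLFit and glmQLFTest, all 5 libraries, no covariate, Benjamini-Hochberg adjustment over 12035 genes, threshold 0.05. SE was taken as the absolute log2 fold change over the root of the F statistic. The script was tested on simulated data. DESeq2 1.42.0, limma-voom (limma 3.58.1), other scalings, no filter, removal of each library's loess trend on length and GC content (known for 98.1% of tested genes), a replicate block and leaving out each library were alternatives. Length, GC and positions are those of GENCODE vM21 (GRCm38). The members and lists were chosen with earlier results of these data known. The text names all members, called genes of each list (up to 4), and the 5 genes most like the leading member; Azin1, Mtr, Tyms, Dhps, Dohh, Mat2b and Mettl16 were added for their roles after their values were seen. A gene of the folate list is not reported here and is in no list count. The series calls libraries biological replicates, and p-values reflect the spread of these pooled samples.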

Additional observations from a re-analysis of the deposited data

How the results depend on the processing

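The counts of all genes called lower and higher were 1024 and 960. They were 637 and 1511 with library totals only, 522 and 473 with a replicate block, and 175 and 86 with the replicate block and the length and GC trends removed. With those trends removed alone, 429 were higher. Leaving out 1 library gave 17 to 1291 lower and 21 to 1426 higher. Of the members, 3 were called lower, but 1 with limma-voom, 0 with library totals only and 1 with the replicate block, with or without the trends removed, and 0 to 3 without 1 library. Of the pathway genes, 11 were lower and 4 higher. The number lower was 7 with library totals only, 7 with the replicate block, 2 with the block and the trends removed, and 0 to 13 without 1 library. The number higher was 0 with the trends removed, 0 with the block, 0 with both, and 0 to 1 without 1 library. Calls that were lost had log2 fold changes, for Odc1, of -0.31 (limma-voom), -0.22 (library totals), -0.32 (replicate block) and -0.32 (block and trends). For Mat2a they were -0.29 (limma-voom), -0.21 (library totals), -0.10 (trends), -0.24 (replicate block) and -0.083 (block and trends), and for Mthfd1l -0.31 (library totals). Srm was gained at -0.45 with DESeq2 and -0.57 with the trends removed. Without 1 library the log2 fold changes ranged from -0.38 to -0.23 for Odc1, -0.68 to -0.25 for Srm, -0.55 to -0.30 for Mthfd2, -0.47 to -0.32 for Mthfd1l and -0.31 to -0.24 for Mat2a. The causes were not tested. Whether same-numbered libraries were paired is not given in the sample titles. Deviations of same-numbered libraries from their group means correlated at -0.07 and 0.04 across genes. With 2 knockout libraries the deviations of 1 mirror those of the other, so these values cannot decide it. In the fits with a replicate block, control replicate 3 has no knockout library of its number. Precision is limited by 2 knockout libraries.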
